A study of Mus musculus with 18 samples.

Results

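The choroid plexus genes described here are Ttr, Kl, Folr1, Aqp1, Clic6, Otx2, Enpp2, Igf2 and Sostdc1, taken by gene symbol and followed through every probe set that the platform annotation gives to 1 of these symbols alone. A probe set is the group of short oligonucleotides on an Affymetrix array that reports 1 transcript. Of the 9 genes, 8 had a probe set, 15 probe sets in all among the 45037 non-control probe sets of the array, and Enpp2 was not analysed here. The samples were whole brains of C57BL/6 mice aged 8 weeks in 3 genotypes. These were labelled ERalphaKO (knockout of estrogen receptor alpha, gene Esr1), ERbetaKO (knockout of estrogen receptor beta, gene Esr2) and wild type, with 3 females and 3 males each and 1 array a sample, 18 arrays in all. The titles carry the letters FB for samples taken as female and MB for those taken as male. No check of sex is given here. The labels give neither the knockout alleles nor how the lines were made, and they do not say that each sample came from a separate animal. The p-values therefore measure the spread between these samples, which may be technical.

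The choroid plexus is a folded epithelium over a vascular core that hangs into the brain ventricles and secretes most of the cerebrospinal fluid. Its epithelial cells move ions and water into the fluid, carry thyroid hormone, folate and growth factors between blood and brain, and are joined by tight junctions that form the barrier between blood and cerebrospinal fluid. It is a small part of a whole brain, so its abundant transcripts reach whole-brain RNA from a small number of cells. In such bulk tissue, fewer cells of a type and less RNA per cell cannot be told apart.

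The deposited signals had the same trimmed mean on every array, and the values below are in the arbitrary units of that scale. The check of the targeted genes did not follow the labels: the Esr2 probe set had a signal of 271 ± 98.0 in ERbetaKO-labelled brains, against 28.7 ± 11.4 in wild type brains (SD, n = 6 each). Of the 3 Esr1 probe sets, the one with the highest mean log2 signal had 129 ± 21.6 in ERalphaKO-labelled brains and 143 ± 35.9 in wild type brains (SD, n = 6 each). Another, about as bright, had 230 ± 52.3 in ERalphaKO-labelled brains and 141 ± 50.6 in wild type brains, and the dimmest had 65.0 ± 20.6 and 38.6 ± 16.4 in the same order. Where the probes lie relative to a deleted part is not given in the sources used here, so these values do not check the labels, and the genotype names below are those of the labels. The ratio of the 3′ to the 5′ control probe set of Actb, a measure of RNA integrity and labelling, was 1.15 to 1.37 in ERalphaKO arrays, 1.34 to 1.84 in ERbetaKO arrays and 1.17 to 1.23 in wild type arrays. Brain neuron markers were high in every genotype, with Snap25 at 12199, 14899.5 and 15444 on average in ERalphaKO, ERbetaKO and wild type brains.

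Ttr encodes transthyretin, the carrier of thyroxine and of retinol-binding protein that the choroid plexus epithelium secretes, and it had 4 probe sets. The brightest had a lowest signal of 2971, a median of 13749 and a highest of 14912 in ERalphaKO brains. In ERbetaKO brains these were 12052, 16381 and 19811, and in wild type brains 837, 15697 and 19036. The 2 lowest values came from 2 arrays, ERalphaKO male 3 at 2971 and wild type male 3 at 837, and the other 16 arrays lay between 11309.9 and 19811.

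The other 3 Ttr probe sets placed the same 2 arrays lowest. They gave 1761, 1904 and 2190.0 on ERalphaKO male 3, and 530.0, 622 and 921 on wild type male 3, whereas the lowest values among the other 16 arrays were 6761, 5741 and 9494. Relative to the median of those 16 arrays, the 4 Ttr probe sets were 5.11 to 7.58 times lower on ERalphaKO male 3 and 13.9 to 25.2 times lower on wild type male 3.

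These 2 arrays were also low for further choroid plexus genes, though not for all of them. Folr1, the folate receptor alpha that carries folate into the cerebrospinal fluid, had a signal of 98.3 on ERalphaKO male 3 and 101 on wild type male 3, against 216 to 528 on the other 16 arrays. Kl, the co-receptor of the hormone Fgf23 whose shed form circulates, had 96.6 and 128 on these arrays, against 186 to 640 on the others. For both genes, as for Ttr, the 2 arrays were the lowest of the 18.

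Sostdc1, a secreted antagonist of BMP and Wnt signalling, had 18.1 on ERalphaKO male 3 and 26.6 on wild type male 3. The other 16 arrays had 24.2 to 743, the lowest being wild type female 1, which lay between the 2. Otx2, the homeobox factor required for formation of the choroid plexus, had 10.3 and 11.7 on the 2 arrays and 10.9 to 188 on the others, of which 1, ERbetaKO male 1, lay between them. Sostdc1 and Otx2 were thus very dim on the 2 arrays, but not on these alone.

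Clic6, by its brighter probe set, and Aqp1 set the 2 arrays apart from each other. With that probe set Clic6, an intracellular chloride channel protein, had 539 on ERalphaKO male 3, the lowest of the 18, and 802 on wild type male 3, above the median of 769 of the other arrays. Its second probe set had 166 on ERalphaKO male 3 and 381 on wild type male 3, both below the median of 513 of the others. Aqp1, the water channel of the ventricular face of the epithelium, had 230.1 on ERalphaKO male 3, the highest of the 18, and 123 on wild type male 3. Igf2, a growth factor secreted by choroid plexus and leptomeninges, had 1068 and 878 on the 2 arrays with its brighter probe set, against 812 to 1849 on the others, and both lay below the median of 1399.6 of those. The differences between genotypes are given below with and without these arrays for the choroid plexus genes, and calls of other genes that are gained or lost without them are named. Leaving them out was chosen after the values had been seen.

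**Figure D1:**
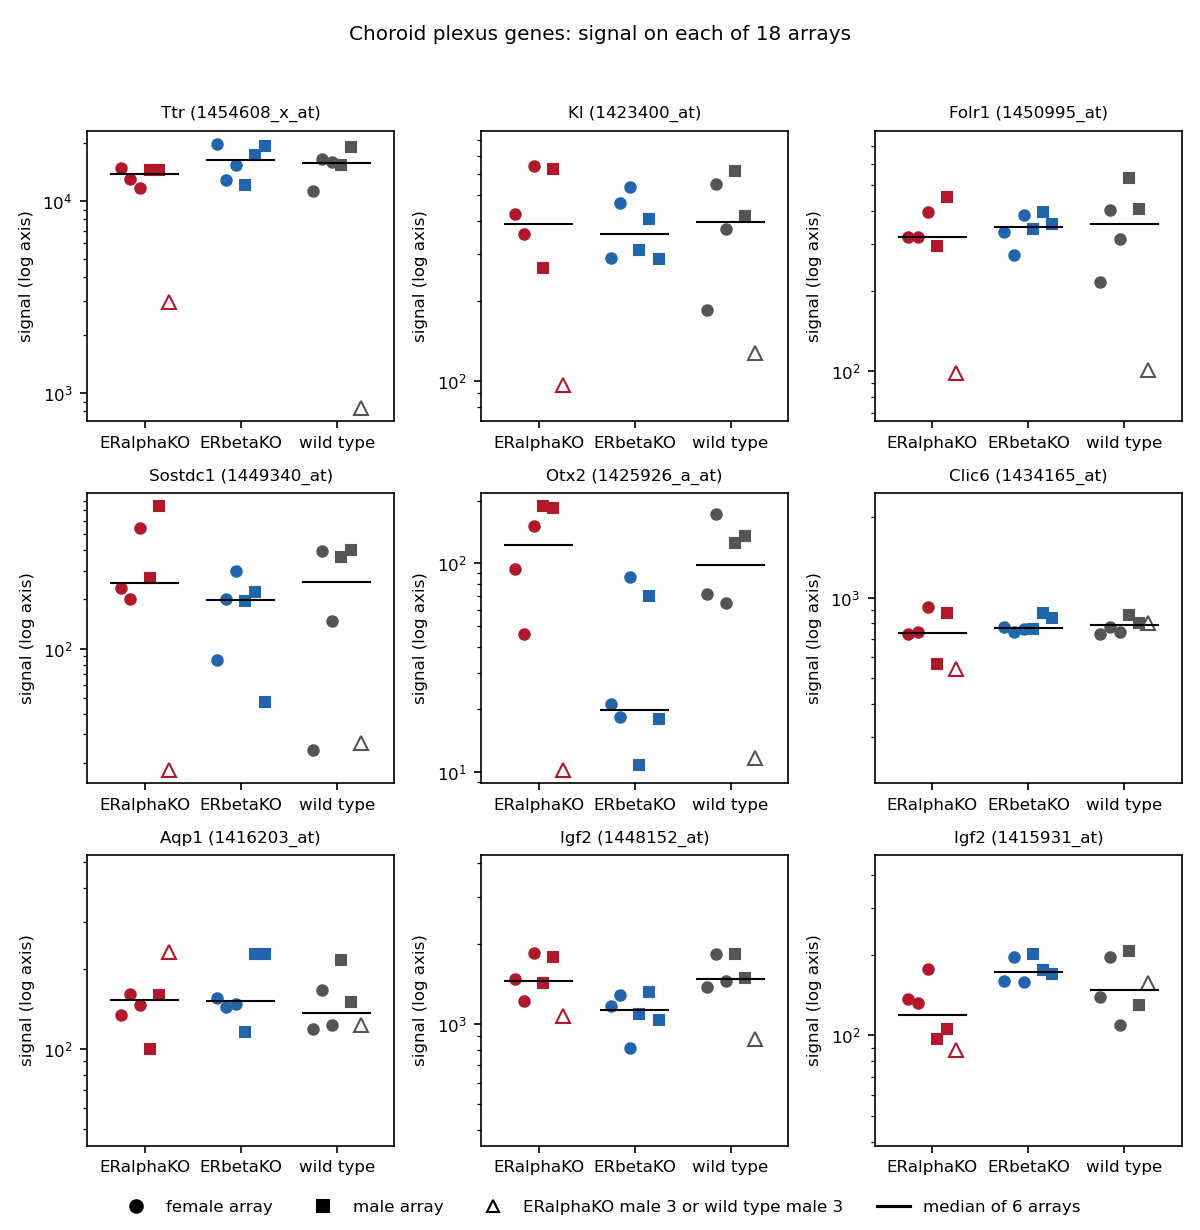
Signal of each choroid plexus gene on 18 arrays (y axis, MAS5 signal, log axis) by genotype (x axis), with circles for females, squares for males, open triangles for ERalphaKO male 3 and wild type male 3, and a bar at the median of 6 arrays. The 2 triangles lie lowest for Ttr, Kl and Folr1, whereas for Aqp1 ERalphaKO male 3 lies highest, and the 2 Igf2 probe sets order the genotypes differently.

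None of the 7 genes past the filter on low signal was called in any comparison of genotypes (limma, Benjamini-Hochberg adjusted over all 13072 genes tested, threshold 0.05). Otx2 did not reach the filter. In ERalphaKO against wild type, 0 of 7 were called, with none at an unadjusted p under 0.05, against 6.7% of all genes tested. In ERbetaKO against wild type, 0 of 7 were called, with 1 at an unadjusted p under 0.05, against 7.5% of all genes. In ERalphaKO against ERbetaKO, 0 of 7 were called, with 1 at an unadjusted p under 0.05, against 15.4% of all genes. The 3 comparisons share their samples. Without the 2 arrays, 0, 1 and 1 of the 7 were called in the same order, against 3.21%, 6.82% and 17.3% of all genes, and the called gene was Igf2 both times.

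The log2 differences of the 7 genes had a median of 0.03 in ERalphaKO against wild type, beside -0.03 over all genes tested, with 5 above 0 and 2 below. In ERbetaKO against wild type the median was 0.12, beside 0.01 over all genes, again with 5 above 0. Without the 2 arrays these medians were -0.07 and -0.10. The sign of the median thus depended on 2 of the 18 arrays.

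For Ttr the log2 difference was 0.15 ± 0.58 (SE) in ERalphaKO against wild type, with an adjusted p of 0.911. It was 0.72 ± 0.58 in ERbetaKO against wild type, with an adjusted p of 0.462, and -0.58 ± 0.58 in ERalphaKO against ERbetaKO, with an adjusted p of 0.517. Without the 2 low arrays the differences were -0.18 ± 0.16, 0.01 ± 0.15 and -0.20 ± 0.15 in the same order, none with an adjusted p under 0.360. On the 16 remaining arrays the Ttr values of the 3 genotypes overlapped.

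Kl had 96.6 at the lowest, a median of 390.4 and 640 at the highest in ERalphaKO brains. These values were 288, 358 and 533 in ERbetaKO brains and 128, 395 and 613 in wild type brains. The groups overlapped, and the differences from wild type were 0.06 ± 0.34 for ERalphaKO and 0.12 ± 0.34 for ERbetaKO (log2 ± SE, limma adjusted p of 0.945 and 0.858). With the 2 arrays left out they were 0.06 ± 0.26 for ERalphaKO and -0.14 ± 0.25 for ERbetaKO (adjusted p of 0.933 and 0.764), the sign turning in ERbetaKO. The second Kl probe set had no signal above 76.8 on any array and did not pass the filter.

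Folr1 had 98.3, 320 and 452 (lowest, median and highest signal) in ERalphaKO brains, 272, 349 and 394 in ERbetaKO brains and 101, 357 and 528 in wild type brains. ERbetaKO brains thus lay inside the range of wild type brains. The differences from wild type were -0.02 ± 0.29 for ERalphaKO and 0.18 ± 0.29 for ERbetaKO (log2 ± SE, limma adjusted p of 0.972 and 0.740). Over the other 16 arrays they were -0.07 ± 0.15 and -0.10 ± 0.14 in the same order (adjusted p of 0.837 and 0.690), so that the sign turned in ERbetaKO here too.

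Aqp1 had 100.2, 153 and 230.1 (lowest, median and highest signal) in ERalphaKO brains, 116, 151 and 226 in ERbetaKO brains and 119, 137 and 214 in wild type brains. Clic6 had 539, 736 and 921 with its brighter probe set in ERalphaKO brains, 742, 770.2 and 876 in ERbetaKO brains and 731, 788 and 860 in wild type brains. With this probe set ERbetaKO and wild type brains lay in a narrow band, and ERalphaKO brains spread on either side of it, with 2 values above every wild type value and 2 below. The second Clic6 probe set spread widely in every genotype, with 166, 558 and 878 in ERalphaKO brains, 395, 513 and 720.0 in ERbetaKO brains and 346, 419 and 746 in wild type brains. The Aqp1 differences were 0.03 ± 0.16 in ERalphaKO and 0.12 ± 0.16 in ERbetaKO against wild type, those of Clic6 -0.12 ± 0.10 and 0.01 ± 0.10 (log2 ± SE, limma), and none was called. Over the 16 arrays the Aqp1 differences were -0.13 ± 0.15 and 0.06 ± 0.15, the sign turning in ERalphaKO, and those of Clic6 -0.07 ± 0.10 and 0.00 ± 0.10, none called. Clic6 in ERalphaKO against ERbetaKO, -0.13 ± 0.10 (SE, limma adjusted p of 0.349), was called without 1 array, ERalphaKO male 2, where it was -0.24 with an adjusted p of 0.0481. Without that array 9.05% of all genes were called in this comparison.

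Sostdc1 had 18.1, 253 and 743 (lowest, median and highest signal) in ERalphaKO brains, 47.5, 198 and 299.9 in ERbetaKO brains and 24.2, 256 and 402 in wild type brains. Its differences were 0.46 ± 0.55 in ERalphaKO against wild type, -0.07 ± 0.55 in ERbetaKO against wild type and 0.53 ± 0.55 in ERalphaKO against ERbetaKO (log2 ± SE, limma adjusted p of 0.661, 0.956 and 0.534). When the 2 arrays were left out these were 0.52 ± 0.44, -0.45 ± 0.41 and 0.97 ± 0.41, with adjusted p of 0.537, 0.534 and 0.114. The second, dimmer probe set had 20.9, 102 and 184 in ERalphaKO brains, 36.7, 82.7 and 135 in ERbetaKO brains and 5.89, 107 and 148 in wild type brains, and its groups overlapped too. The 2 Sostdc1 probe sets moved together over those 16 arrays (Pearson r = 0.74, permutation p of 0.00124, adjusted over 7 pairs of probe sets 0.00289).

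Otx2 was the only gene of the 8 whose median differed between genotypes by several fold. It had 10.3, 122 and 188 (lowest, median and highest signal) in ERalphaKO brains, 10.9, 19.8 and 86.3 in ERbetaKO brains and 11.7, 98.0 and 173 in wild type brains. In ERbetaKO brains 4 of 6 values were under 22, a level that wild type brains had on 1 array of 6 and ERalphaKO brains on 1 of 6. In the fit over all 45037 probe sets without a filter, the log2 difference was -0.63 ± 0.33 (SE) in ERbetaKO against wild type, with a limma adjusted p of 0.307. It was 0.72 ± 0.33 in ERalphaKO against ERbetaKO, with an adjusted p of 0.174, and 0.09 ± 0.33 in ERalphaKO against wild type, with an adjusted p of 0.912. None passed the threshold, and in that fit 4.72%, 3.59% and 9.43% of all probe sets did in ERalphaKO against wild type, ERbetaKO against wild type and ERalphaKO against ERbetaKO. Without the 2 arrays the difference was 0.16 ± 0.25, -0.86 ± 0.24 and 1.02 ± 0.24 in the same order (limma adjusted p of 0.800, 0.0702 and 0.0218), beside 2.33%, 2.26% and 9.09% of all probe sets called. Otx2 was thus called higher in ERalphaKO than in ERbetaKO brains without the 2 arrays and not with them, at signals too dim for the filter.

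Igf2 came closest to the threshold, and its 2 probe sets gave opposite directions. The brighter one had 1068, 1449.8 and 1849 (lowest, median and highest signal) in ERalphaKO brains, 812, 1129 and 1317 in ERbetaKO brains and 878, 1469 and 1837 in wild type brains. All 6 ERbetaKO values lay below 5 of the 6 wild type values, and the sixth was that of wild type male 3. Full separation was seen for 4.06% of all genes in that comparison, and the share with this looser pattern is not given here. The log2 difference was -0.36 ± 0.17 (SE) in ERbetaKO against wild type, with a limma adjusted p of 0.196. It was 0.37 ± 0.17 in ERalphaKO against ERbetaKO, with an adjusted p of 0.148, and 0.01 ± 0.17 in ERalphaKO against wild type, with an adjusted p of 0.987.

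Without the 2 arrays, the brighter Igf2 probe set fell by 0.50 on the log2 scale in ERbetaKO against wild type (limma adjusted p of 0.0403) and was 0.46 ± 0.14 higher in ERalphaKO than in ERbetaKO (SE, adjusted p of 0.0328). In the fit over all probe sets without the 2 arrays, the limma adjusted p were 0.0658 and 0.0492 in the same order, so the first call depended on the fit. Leaving out wild type male 3 alone gave -0.50 with an adjusted p of 0.0583 in ERbetaKO against wild type. The Actb 3′ to 5′ ratio was 1.34 to 1.84 in ERbetaKO arrays and 1.17 to 1.23 in wild type arrays. These ranges do not overlap, so ratio and genotype cannot be told apart in that comparison. With the ratio as a covariate the difference was -0.62 ± 0.29, with an adjusted p of 0.324. Igf2 is also made by leptomeninges, and the 20 tested leptomeningeal and perivascular markers had a summed signal of 10561 to 13955 in ERalphaKO brains, 7792 to 15406 in ERbetaKO brains and 7825 to 12525 in wild type brains. Of these 20 markers, 0 were called in ERbetaKO against wild type and 2 rose in ERalphaKO against ERbetaKO. The part of these values in the Igf2 difference was not tested.

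The dimmer Igf2 probe set had 88.3, 119 and 178 (lowest, median and highest signal) in ERalphaKO brains, 158, 173 and 202 in ERbetaKO brains and 109.7, 148 and 207 in wild type brains. Here ERbetaKO brains were the highest group, and 5 of 6 ERalphaKO values lay below every ERbetaKO value. Full separation was seen for 5.85% of all genes in that comparison, and the share with this looser pattern is not given here. In the fit over all probe sets its log2 difference was -0.39 ± 0.12 (SE) in ERalphaKO against ERbetaKO, with a limma adjusted p of 0.0560, and 0.14 ± 0.12 in ERbetaKO against wild type, with an adjusted p of 0.541. Without the 2 arrays these were -0.37 ± 0.14 and 0.13 ± 0.14 (limma adjusted p of 0.103 and 0.639). The 2 probe sets did not track each other over the 16 arrays (Pearson r = -0.08, permutation p of 0.782). No direction is therefore given for Igf2 as a gene.

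**Figure D2:**
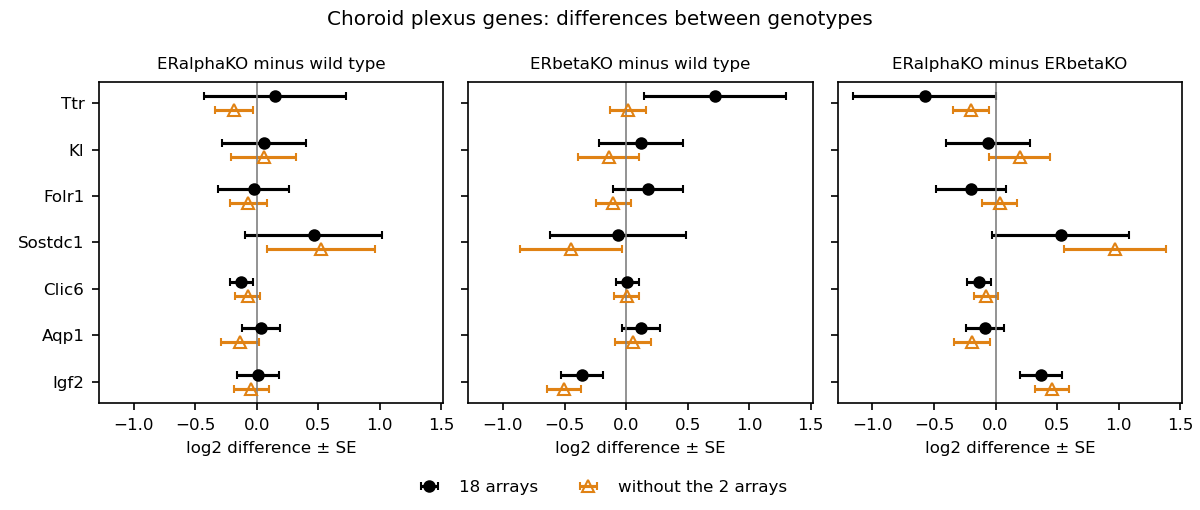
Log2 difference with its standard error (x axis) for the 7 choroid plexus genes tested (y axis) in the 3 comparisons of genotypes, over 18 arrays (filled circles) and without ERalphaKO male 3 and wild type male 3 (open triangles). Igf2, by its brighter probe set, is the only gene whose 2 estimates both lie well away from 0 in ERbetaKO against wild type, at -0.36 and -0.50. For Ttr the error shrinks from 0.58 to 0.15 in that comparison, the 2 arrays left out being those farthest from the median of Ttr.

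Between the sexes, 0 of 7 genes were called and none had an unadjusted p under 0.05, against 0.0306% of all genes called. The 2 low arrays are both male, and the direction of the Ttr difference depended on them: it was 0.59 ± 0.47 in females against males (log2 ± SE, limma adjusted p of 0.974), and -0.14 ± 0.12 without the 2 arrays (adjusted p of 0.961). No test of a difference in genotype effect between the sexes passed the threshold for any of the 7 genes. The smallest p among the 14 interaction terms was 0.0535, for Clic6 in ERalphaKO, with a limma adjusted p of 0.953, and 0% of all genes were called there.

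Most of the 7 genes varied more between arrays of 1 group than the median gene did. The residual SD on the log2 scale was 1.16 for Ttr, 1.11 for Sostdc1, 0.68 for Kl and 0.56 for Folr1, at percentiles 99.8, 99.8, 99.0 and 98.0 of all genes tested, whose median was 0.18. Igf2 and Aqp1 were at percentiles 89.0 and 81.7, and Clic6, at 0.17, lay below the median gene, at percentile 43.0. Without the 2 arrays Ttr and Folr1 were at percentiles 81.7 and 76.3, whereas Sostdc1 was still at 99.6 and Kl at 97.0. The variation of Sostdc1 and Kl was thus spread over more arrays than the 2.

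The genes were then compared by how they varied together from array to array. Over 18 arrays the median Pearson r of the 7 other genes with Ttr, by its brightest probe set, was 0.437. But the 2 arrays form a cluster of their own, and without them it was 0.02. They were also the 2 arrays farthest from the median of Ttr. No relation with Ttr passed over the 16 arrays after adjustment over the 7 relations. The closest was Aqp1, with r = 0.52 and rho = 0.61 (permutation p of 0.0412 and 0.0145, adjusted 0.288 and 0.101). Once the 2 arrays were left out, Ttr, by its brightest probe set, moved least with the other genes of the set. Over the 16 arrays the other Ttr probe sets followed the brightest with r of 0.62 to 0.91, and they were not correlated with the other genes here. Wild type female 1, the lowest of the 16 for Kl at 186, was also the lowest of them for every Ttr probe set.

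Relations with Kl were examined after those with Ttr had been seen. Over the 16 arrays Sostdc1 followed Kl with Pearson r = 0.85 and Spearman rho = 0.82 (permutation p of 2e-05 and 0.00017, adjusted over 7 relations 0.00014 and 0.00119). Folr1 followed it with r = 0.77 and rho = 0.66 (permutation p of 0.00051 and 0.00644, adjusted 0.00178 and 0.0225). Without the 2 of these arrays farthest from the median of Kl, r was 0.75 for Sostdc1 and 0.65 for Folr1. The remaining relations with Kl had r of 0.55 for Clic6, 0.48 for Otx2, 0.44 for Igf2, 0.35 for Aqp1 and 0.02 for Ttr, and none of these passed by Pearson r after adjustment (0.0548, 0.111, 0.128, 0.221 and 0.939). By Spearman rho, Clic6 (0.56, permutation p of 0.0267, adjusted 0.0467) and Igf2 (0.59, permutation p of 0.0167, adjusted 0.0391) passed.

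The relations with Kl were also computed within genotypes. On deviations from the 6 group means, which a permutation p treats as independent although they are not quite, r with Kl over the 16 arrays was 0.90 for Sostdc1, 0.86 for Folr1, 0.67 for Clic6, 0.61 for Otx2 and 0.54 for Igf2. Within the 6 ERalphaKO arrays, ERalphaKO male 3 included, r was 0.95 for Sostdc1 and 0.96 for Folr1 (exact permutation p of 0.0139 and 0.00556, adjusted 0.0243 and 0.0194), and 0.78 and 0.93 without the 2 arrays farthest from the median of Kl. Within the 6 ERbetaKO arrays it was 0.83 for Sostdc1 and 0.02 for Folr1 (exact permutation p of 0.0431 and 0.971, adjusted 0.301 and 0.971), and 0.76 and 0.87 without the 2 farthest. Within the 6 wild type arrays it was 0.94 for Sostdc1 and 0.97 for Folr1 (exact permutation p of 0.0167 and 0.00278, adjusted 0.0292 and 0.00972), wild type male 3 included, and 0.65 and 0.86 without the 2 arrays farthest from the median of Kl. The difference between genotypes was not tested.

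Otx2 moved with 2 other genes. Of the 28 pairs among the 8 genes over the 16 arrays, 8 passed after adjustment over the 28 by Pearson r. Besides Kl with Sostdc1 and Folr1 they were Otx2 with Sostdc1 (r = 0.70, permutation p of 0.00202, adjusted 0.0141) and with Igf2 (r = 0.67, 0.00371, adjusted 0.0173), Aqp1 with Clic6 (r = 0.69, 0.00182, adjusted 0.0141), and Folr1 with Sostdc1 (r = 0.70), Clic6 (r = 0.62) and Aqp1 (r = 0.61), adjusted 0.0150, 0.0440 and 0.0440. By Pearson r, Folr1 was in 4 of the 8 pairs, Sostdc1 in 3, Kl, Otx2, Aqp1 and Clic6 in 2 each, Igf2 in 1 and Ttr in none. By Spearman rho the same 8 pairs passed after adjustment over the 28, and further pairs did too. These were Ttr with Aqp1 (rho = 0.61, permutation p of 0.0145, adjusted 0.0406), Kl with Igf2 (0.59, 0.0168, adjusted 0.0428) and Igf2 with Sostdc1 (0.67, 0.005, adjusted 0.0233). The membrane transport genes Aqp1, Clic6 and Folr1 were all linked in this way, and so were Kl, Sostdc1 and Folr1. Aqp1 and Sostdc1 had r = 0.04. Ttr stands here for its brightest probe set alone. Igf2 stands for its brighter probe set, which its other probe set did not track, and Otx2 did not reach the filter. Both had their lowest median in ERbetaKO brains, and the relation of Otx2 with Igf2 was not examined within genotypes.

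**Figure D3:**
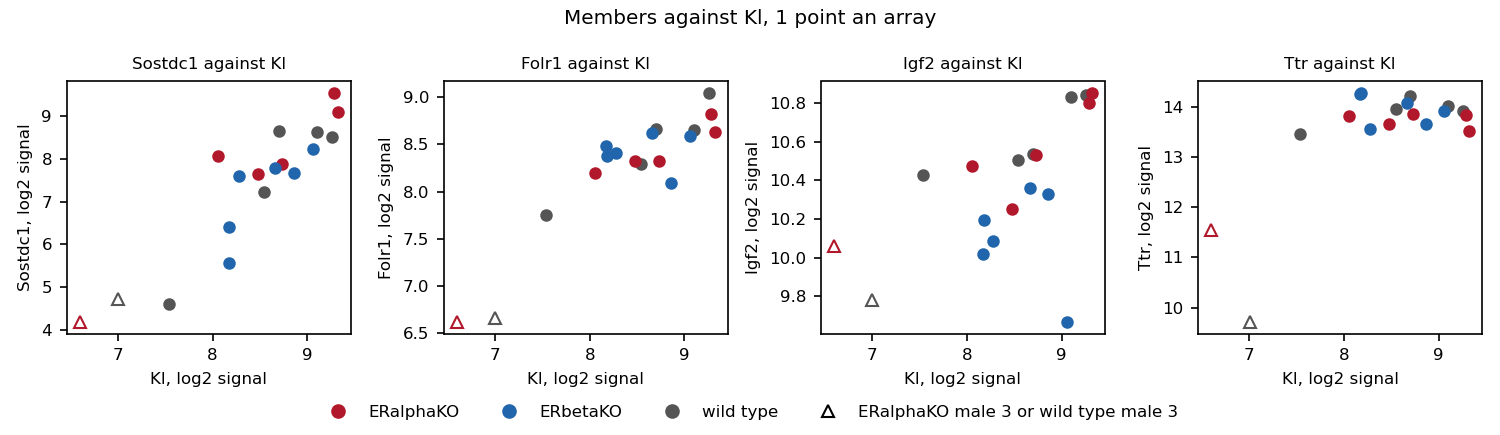
Log2 signal of Sostdc1, Folr1, Igf2 (brighter probe set) and Ttr (brightest probe set) (y axes) against that of Kl (x axis), 1 point an array, coloured by genotype, with open triangles for ERalphaKO male 3 and wild type male 3. Sostdc1 and Folr1 climb with Kl over the 16 arrays drawn as circles (r = 0.85 and 0.77), whereas Ttr is flat over them (r = 0.02) and falls only on the triangles.

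An index of the set was formed as the mean centred log2 signal of the 7 genes past the filter, and all other genes were ranked by their Pearson r with it over the 18 arrays. The 12 nearest were Ecrg4 (0.95), Kcne2 (0.91), Calml4 (0.89), Kcnj13 (0.87), F5 (0.86), Col8a2 (0.84), Lbp (0.83), Prr32 (0.80), Col8a1 (0.79), Phf21a (0.77), Manba (0.76) and Spsb1 (0.73). Of these, 8 belong to a list of 41 other genes known from choroid plexus epithelium, chosen with earlier results of these data known. Ecrg4 encodes a secreted peptide precursor, Kcne2 and Kcnj13 a potassium channel subunit and channel of the epithelium, and F5 coagulation factor V. On deviations from the 6 group means the 5 nearest were Ecrg4, Kcne2, Kcnj13, Prr32 and Calml4, all of that list. These r are a description over arrays that share the 2 low ones.

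Several of the nearest genes were low on the same 2 arrays. The index itself was lowest on these arrays, so a ranking by r with it favours such genes. Ecrg4 had 44.6 on ERalphaKO male 3 and 71.3 on wild type male 3, against 142 to 672 on the other 16. Kcne2 had 23.4 and 80.6 on the 2 arrays, against 103 at the lowest on the others, and Kcnj13 had 235 and 159, against 259 at the lowest. All 3 kept a high r with the index without the 2 arrays, at 0.89 for Ecrg4, 0.92 for Kcne2 and 0.83 for Kcnj13. Prr32 did not, with r of 0.38 over the 16, and Manba fell to 0.51.

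Of the 31 tested genes of the choroid plexus list, 8 (25.8%) had r over 0.7 with the index, beside 0.145% of all genes tested. Over the 16 arrays, 35.5% of the list had r over 0.5, beside 2.74% of all genes, but so did 58.3% of the 12 tested myelin genes, whose median r was 0.52 beside 0.38 for the choroid plexus list. The list also held genes that did not follow it, such as Htr2c, the serotonin receptor of the choroid plexus that neurons express too, at r = 0.10, Car12, a carbonic anhydrase, at 0.17, and Krt8, a keratin, at 0.25. The mean score of the list followed the index over the 16 arrays with r = 0.87 and rho = 0.86 (permutation p of 1e-05, the smallest these permutations can give, and 3e-05, adjusted over 11 lists 0.00011 and 0.00033). The list was chosen with earlier results of these data known, so these values describe it and give no independent test.

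None of the other 10 lists of cell types and brain regions tested beside it passed over the 16 arrays. The closest was myelin and oligodendrocytes (r = 0.57, permutation p of 0.0236, adjusted 0.130), and the others, which were ependyma, leptomeninges, endothelium, mural cells, cerebellum, pituitary, pineal gland, olfactory bulb and thalamus, had r of -0.13 to 0.46. The 2 low arrays were low for cerebellum too: the Purkinje cell gene Pcp2 had 209 on ERalphaKO male 3 and 179 on wild type male 3. But Pcp2 was as low, at 117 to 299, on wild type female 3, ERalphaKO female 2 and ERbetaKO females 2 and 3 and male 1, whose Ttr signals lay among the 16. Olfactory bulb markers went the other way: their mean centred log2 signal was 1.54 on ERalphaKO male 3 and 0.42 on wild type male 3, the 2 highest of the 18 arrays. The part of tissue taken with the brain in the 2 low arrays was not tested.

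**Figure D4:**
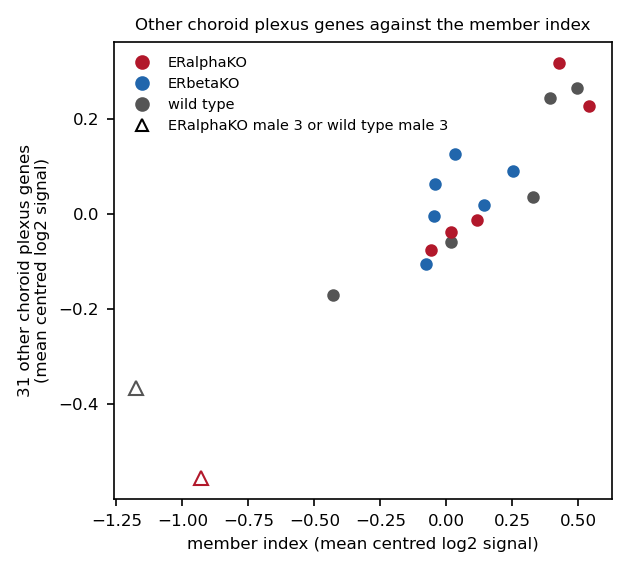
Mean centred log2 signal of the 31 other choroid plexus genes tested (y axis) against that of the 7 genes of the index (x axis), 1 point an array, coloured by genotype, with open triangles for ERalphaKO male 3 and wild type male 3. The 2 triangles lie lowest on both axes, and the 16 circles rise together (r = 0.87).

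The sequence upstream of the genes was examined for motifs, because several of them moved together and because the knocked-out proteins are DNA-binding receptors. Shown are the 250 bases before the annotated start, from RefSeq on GRCm38.p6, for Otx2 and Igf2, whose windows held a motif, and for Kl, which Sostdc1 and Folr1 followed, and Kcne2, the gene outside the set nearest to its index over the 16 arrays. Capitals mark the letters GGATTA in Otx2 and TGACCT in Igf2.
Otx2, chr14:48665110-48665359, minus strand: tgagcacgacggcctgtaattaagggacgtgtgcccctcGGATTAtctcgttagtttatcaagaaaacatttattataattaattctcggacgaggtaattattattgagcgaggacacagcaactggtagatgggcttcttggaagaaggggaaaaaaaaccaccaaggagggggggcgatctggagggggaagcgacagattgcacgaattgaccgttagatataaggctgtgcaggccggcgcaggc
Igf2, chr7:142666817-142667066, minus strand: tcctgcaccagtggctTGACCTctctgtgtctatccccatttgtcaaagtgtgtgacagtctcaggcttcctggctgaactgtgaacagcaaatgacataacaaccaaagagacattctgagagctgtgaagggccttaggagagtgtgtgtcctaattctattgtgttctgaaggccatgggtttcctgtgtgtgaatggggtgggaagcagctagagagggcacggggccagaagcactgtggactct
Kl, chr5:150952357-150952606, plus strand: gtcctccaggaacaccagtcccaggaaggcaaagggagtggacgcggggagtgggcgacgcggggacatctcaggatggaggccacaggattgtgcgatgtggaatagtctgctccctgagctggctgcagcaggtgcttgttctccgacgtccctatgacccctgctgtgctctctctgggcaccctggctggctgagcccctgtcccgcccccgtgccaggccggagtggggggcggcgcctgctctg
Kcne2, chr16:92292139-92292388, plus strand: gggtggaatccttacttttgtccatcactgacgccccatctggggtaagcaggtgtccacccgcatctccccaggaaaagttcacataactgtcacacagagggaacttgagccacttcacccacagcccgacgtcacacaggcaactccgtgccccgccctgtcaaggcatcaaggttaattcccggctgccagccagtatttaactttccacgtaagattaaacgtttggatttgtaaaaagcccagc

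Windows of Ttr, Folr1, Clic6 and Sostdc1 were not analysed here. The motif bound by Otx factors, TAATCC or GGATTA on the other strand, was searched on both strands, and 6.25% of 32851 promoter windows of this length held it. Among the 10 windows of Kl, Aqp1, Igf2 and Otx2 it occurred once, starting 211 bases before 1 of 4 annotated starts of Otx2. None of the 9 windows of Ecrg4, Kcnj13, F5, Calml4, Kcne2, Col8a1, Col8a2 and Prr32 held it. The estrogen response element, GGTCA followed by any 3 bases and its reverse complement TGACC, in 0.0639% of windows, occurred in none of the 19. Its half-site AGGTCA or TGACCT, in 14.0% of windows, occurred 234 bases before 1 of 4 starts of Igf2 and 57 bases before the start of F5. These matches describe the letters in the windows only.

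The other genes of the choroid plexus list were called about as often as all genes, or less. In ERalphaKO against wild type, 0 of 31 were called, beside 6.7% of all genes, with a median log2 difference of -0.01 beside -0.03 over all genes, and the first 2 of the list, Kcnj13 and Calml4, had log2 differences of -0.14 ± 0.31 and -0.01 ± 0.21 (SE, limma adjusted p of 0.825 and 0.979). In ERbetaKO against wild type, 2 of 31 rose and none fell, beside 7.5% of all genes called, with a median of 0.04 beside 0.01 over all genes. Lmx1a, a homeobox factor of the roof plate, had 274 ± 47.0 in ERbetaKO brains and 143 ± 61.7 in wild type brains, which on the log2 scale differed by 0.75 ± 0.19 (SE, limma adjusted p of 0.0284). Msx1, another homeobox factor, had 794 ± 53.2 in ERbetaKO brains and 542 ± 84.4 in wild type brains (SD, n = 6 each), a log2 difference of 0.51 ± 0.14 (adjusted p of 0.0395). The Lmx1a call was lost in 6 and the Msx1 call in 10 of the 18 fits that left out 1 array, and Msx1 also without the 2 low arrays.

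In ERalphaKO against ERbetaKO, 5 of the 31 were called, 2 higher and 3 lower, beside 15.4% of all genes. Cldn2, the claudin that forms cation and water pores in the tight junctions of this epithelium, had 208 ± 38.9 in ERalphaKO brains and 324 ± 32.7 in ERbetaKO brains. Its log2 difference was -0.52 ± 0.12 (SE, limma adjusted p of 0.0107), and all 6 ERalphaKO values lay below all 6 ERbetaKO values, a separation seen for 5.85% of all genes in that comparison. Htr2c had 2389.8 ± 628 in ERalphaKO brains and 1485 ± 549.9 in ERbetaKO brains, a log2 difference of 0.69 ± 0.20 (adjusted p of 0.0330). Slc29a4, a monoamine transporter, had 2139 ± 210.5 in ERalphaKO brains and 2544 ± 271 in ERbetaKO brains, a log2 difference of -0.24 ± 0.08 (adjusted p of 0.0417), and this last call was lost without the 2 low arrays. The second probe set of Slc29a4 went the opposite way (p under 0.05), so no direction is given for it as a gene. Lmx1a, lower in ERalphaKO than in ERbetaKO, was also lost without them, and Trpm3, a cation channel, was then called at 0.90 ± 0.25 (adjusted p of 0.0252).

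The lists of pathways around the members are small, and their counts stand beside 6.7%, 7.5% and 15.4% of all genes called in ERalphaKO against wild type, ERbetaKO against wild type and ERalphaKO against ERbetaKO. In ERbetaKO against wild type, 1 of the 11 tested genes of klotho and endocrine FGF signalling was called: Fgfr1, a receptor that pairs with Kl, fell by 0.88 on the log2 scale (700.3 ± 120.1 in ERbetaKO brains and 1349.6 ± 286 in wild type brains, limma adjusted p of 0.00394). All 6 ERbetaKO values lay below all 6 wild type values, as 4.06% of all genes were separated in that comparison. Between ERalphaKO and ERbetaKO, 3 of the 11 were called: Fgfr1 was higher by 0.68 ± 0.15 (SE), and the receptors Fgfr4 and Fgfr2 were lower, at -0.65 ± 0.11 and -0.63 ± 0.12. No other probe set of Fgfr2 had an unadjusted limma p under 0.05 in this comparison. None of the 11 was called in ERalphaKO against wild type. Fgfr3, another receptor, fell too in ERbetaKO against wild type without the 2 low arrays (-0.34 ± 0.09, adjusted p of 0.0389).

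Of the 13 tested genes of the insulin-like growth factor axis, 2 fell in ERbetaKO against wild type, beside 7.5% of all genes called. These were the binding proteins Igfbp7 (-0.43 ± 0.09, limma adjusted p of 0.0145) and Igfbp5 (-0.42 ± 0.10, 0.0233). Between ERalphaKO and ERbetaKO, 2 were higher and 2 lower, beside 15.4% of all genes, among them Irs2, a signalling adaptor, at 0.65 ± 0.13, Igf2bp3, an RNA-binding protein, at -0.75 ± 0.16, and Igfbp7 at 0.35 ± 0.09, of which another probe set went the opposite way (p under 0.05). None was called in ERalphaKO against wild type. Called only without the 2 low arrays were the binding proteins Igfbp6 in ERbetaKO against wild type (0.41 ± 0.12) and Igfbp4 and Igfbp5 in ERalphaKO against ERbetaKO (-0.45 ± 0.13 and 0.31 ± 0.09).

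Of the 16 tested genes of folate carriage and one-carbon metabolism, the one-carbon enzyme Mthfd1 fell in ERalphaKO against wild type (-0.37 ± 0.08, limma adjusted p of 0.0170), and Mtr, methionine synthase, rose in ERbetaKO against wild type (0.72 ± 0.18, 0.0233). Between ERalphaKO and ERbetaKO, 3 were called, all lower, namely Folr2, the folate receptor of macrophages (-0.57 ± 0.12), Fpgs, which adds glutamates to folate (-0.42 ± 0.11), and Mthfd1 (-0.32 ± 0.08), of which another probe set went the opposite way (p under 0.05). Without the 2 low arrays the Mthfd1 call against wild type was lost, and Aldh1l1, a folate enzyme, fell in ERbetaKO against wild type (-0.31 ± 0.09).

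Of 18 tested genes of ion and water transport into cerebrospinal fluid, the sodium pump subunits Atp1b1 (-0.42 ± 0.11, limma adjusted p of 0.0340) and Atp1b2 (-0.47 ± 0.13, 0.0478) fell in ERalphaKO against wild type, and neither was called without the 2 low arrays. Both subunits are also expressed widely by neurons and glia. In ERbetaKO against wild type the cotransporter Slc12a4 (-0.56 ± 0.12, 0.0111) and Atp1b2 (-0.53 ± 0.13, 0.0261) fell and the aquaporin Aqp11 rose (0.29 ± 0.08, 0.0304), though another Aqp11 probe set went the opposite way (p under 0.05). In ERalphaKO against ERbetaKO, Aqp11 was lower (-0.44 ± 0.08, 0.00314) and the chloride channel Clcn2 higher (0.38 ± 0.11, 0.0251). On the 16 other arrays the water channel Aqp4 (-0.62 ± 0.17) and the carbonic anhydrase Car2 (-0.46 ± 0.13) also fell in ERbetaKO against wild type, and Aqp4 (0.67 ± 0.17) and Slc5a3, an inositol transporter (0.32 ± 0.10), were higher in ERalphaKO than in ERbetaKO brains.

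Among 12 genes of thyroid hormone and retinol carriage, none was called in ERalphaKO against wild type, and the amino acid and thyroid hormone transporter subunit Slc7a5 fell in ERbetaKO against wild type (-0.41 ± 0.07, limma adjusted p of 0.00468). Set against ERbetaKO, in ERalphaKO brains Slc7a5 was higher (0.39 ± 0.07, 0.00441) and the receptor Thrb lower (-0.41 ± 0.11, 0.0175), and without the 2 low arrays so was the deiodinase Dio2 (-0.41 ± 0.12). Of 12 genes of lysophosphatidate signalling, the pathway of Enpp2, only the phosphatase Plpp3 was called, falling by 0.26 in ERbetaKO against wild type (adjusted p of 0.0217). Of 12 Wnt and BMP antagonists and co-receptors, only Dkk3 was called, at -0.74 ± 0.13 in ERalphaKO against ERbetaKO (adjusted p of 0.00314).

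Of 10 genes of the Otx family and dorsal midline patterning, the ligands Wnt5a (0.38 ± 0.11, limma adjusted p of 0.0371) and Bmp6 (0.37 ± 0.12, 0.0428) were higher in ERalphaKO than in ERbetaKO brains, and neither was called without the 2 low arrays, whereas Foxj1, a factor of ciliated cells, was (0.41 ± 0.11). None of the 3 tested chloride intracellular channel genes other than Clic6 was called. Clic1 had a log2 difference of 0.00 ± 0.14 and Clic4 of 0.12 ± 0.12 (SE) in ERalphaKO against wild type, and -0.32 ± 0.14 and -0.21 ± 0.12 in ERbetaKO against wild type.

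Markers of neighbouring tissues were set beside these. Of 14 endothelial genes, the tight-junction claudin Cldn5 fell in both knockouts against wild type, by 0.40 in ERalphaKO and by 0.39 in ERbetaKO (limma adjusted p of 0.00583 and 0.00580), and so did Itm2a, by 0.27 and by 0.26 (adjusted p of 0.0397 and 0.0398). Vwf rose in ERalphaKO (0.41 ± 0.12, 0.0478), and Kdr was lower in ERalphaKO than in ERbetaKO (-0.48 ± 0.12, 0.0179). The 2 knockouts share the wild type samples. Of 9 mural cell genes, Abcc9 (0.41 ± 0.10, 0.0228) and Rgs5 (0.23 ± 0.06, 0.0405) rose in ERbetaKO against wild type, and Vtn was higher in ERalphaKO than in ERbetaKO (0.35 ± 0.07, 0.00718). The Vwf and Rgs5 calls were lost without the 2 low arrays, and Tagln was called in ERalphaKO against ERbetaKO (0.51 ± 0.16).

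Over the 18 arrays, the remaining marker lists had 0 to 2 calls in each comparison of genotypes. Pltp, of 11 ependymal genes, and Nupr1 and Aldh1a2, of 20 leptomeningeal genes, were higher in ERalphaKO than in ERbetaKO brains (0.38 ± 0.11, 0.80 ± 0.22 and 0.70 ± 0.21, limma adjusted p of 0.0325, 0.0228 and 0.0351). Of 12 myelin genes, Myrf fell by 0.75 in ERbetaKO against wild type (adjusted p of 0.0456), and Myrf and Cldn11 were higher in ERalphaKO than in ERbetaKO (0.87 ± 0.22 and 0.41 ± 0.13, 0.0168 and 0.0484). Without the 2 low arrays 6 of the 12 myelin genes were higher in ERalphaKO than in ERbetaKO, beside 17.3% of all genes called, with Fa2h, Mag, Mog and Ugt8a added, and Fa2h also fell in ERbetaKO against wild type (-0.45 ± 0.12). The ependymal count was then 3 of 11, with Foxj1 and Rarres2 added. Over the 18 arrays no gene of the cerebellum (Calb1 at -0.24 ± 0.24 and Pcp2 at 0.16 ± 1.24 in ERalphaKO against wild type), pituitary (Prl at -1.28 ± 1.37, Gh at -2.02 ± 1.41), pineal gland (Lhx4 at -0.05 ± 0.13, Crx at 0.03 ± 0.16), olfactory bulb (Th at 0.53 ± 0.29, Doc2g at 0.49 ± 0.42) or thalamus list (Prkcd at -0.50 ± 0.30, Tcf7l2 at 0.10 ± 0.38) was called in any comparison of genotypes. Without the 2 low arrays 2 thalamic genes were called, Prkcd, lower in ERbetaKO than in wild type (limma adjusted p of 0.0469), and Slc17a6 in ERalphaKO against ERbetaKO (1.42 ± 0.31). The genes named here only without the 2 arrays were chosen after their values had been seen. Some genes named over the 18 arrays had other probe sets, none with an unadjusted limma p under 0.05 in the same comparison. In ERbetaKO against wild type these were Msx1, Mtr, Igfbp7, Igfbp5 and Itm2a, and in ERalphaKO against wild type Mthfd1. In ERalphaKO against ERbetaKO they were Cldn2, Fgfr2, Wnt5a and Nupr1. Each of those calls rests on 1 probe set. With the Actb 3′ to 5′ ratio as a covariate, 38 of the 48 calls of list genes named over the 18 arrays were lost. The shares of all genes called fell too. With the ratio they were 3.24%, 0.933% and 5.78% in ERalphaKO against wild type, ERbetaKO against wild type and ERalphaKO against ERbetaKO. Without it they were 6.7%, 7.5% and 15.4%. The ratio did not overlap between ERbetaKO and wild type arrays, and hardly between the 2 knockouts. A call lost with it therefore does not tell the ratio from the genotype.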

How the data were processed

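Whole-brain RNA of 18 samples was measured on Affymetrix mouse arrays. The authors deposited linear probe set intensity values, per the submitters' processing notes made with MAS5 (version not given in the sources used here), and the 2% trimmed mean of every deposited column was 500.0. The table holds no detection calls, and the number of arrays limits the precision.

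Genes were assigned to probe sets by the platform annotation. Old symbols were replaced through RefSeq (GRCm38.p6), the source of the promoter windows too. A pseudocount of 63.63, the lower quartile of the non-control values, was added before the log2 transform, so differences understate the change of dim genes. Each gene was represented by its brightest probe set by mean log2 value. A filter at the 40th percentile of probe set means, a log2 value of 7.58, left 13072 genes. In R 4.3.3, limma 3.58.1 fitted 6 group means, allowing for an intensity trend (12 residual degrees of freedom), and genotype contrasts averaged the sexes. A second fit took all 45037 probe sets. Adjusted p-values of genes come from limma with Benjamini-Hochberg adjustment. Correlations used log2 intensity and two-sided permutation tests (100000 resamples, exact for n = 6, scipy 1.17.1). 7 relations with Ttr were tested, not the 8 planned, because Enpp2 was not analysed here. The fit was tested on simulated data.

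The members and the 20 gene lists were chosen with earlier results of these data known. Members were described by their brightest probe set and more briefly by their others. Outside them were named the 12 genes nearest to the member index and the 5 nearest on deviations from group means, up to 3 called genes with the smallest adjusted p of each list and comparison, or the first 2 tested of a list with no call. Replicate numbers were not taken to pair the samples, as the labels do not say what they mark. Of 45 same-numbered pairs of groups, 14 had a correlation of deviations over 0.1, and the range was -0.49 to 0.49. It was 0.41 between the 2 low arrays, which share the number 3. Differently numbered pairs were not compared, so a batch shared by equal numbers was not tested. The settings varied were the pseudocount, the scaling (median or quantile), the filter, the probe sets and arrays entered, the trend, weights on arrays, a block for replicate number, the Actb ratio or a cerebellar score as a covariate, and each array left out in turn.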

Additional observations from a re-analysis of the deposited data

Results flagged for a closer look

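In 24 groups of 6 arrays (8 genes by 3 genotypes), 3 lowest arrays stood farther from their neighbour than expected for their group by Dixon's criterion, which chance alone meets in about 1 group of 20. Ttr had a signal of 2971 on ERalphaKO male 3, against 11721 on the next ERalphaKO array. Ttr had 837 on wild type male 3, against 11309.9 on the next wild type array. Folr1 had 98.3 on ERalphaKO male 3, against 295 on the next ERalphaKO array. The 3 values lie on the 2 arrays described above as low for several choroid plexus genes, and the cause was not tested.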

How the results depend on the processing

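Of 1103 recomputed values for the choroid plexus genes, their counts and their correlation, 1082 kept their side of the threshold or stayed within the spread. By the rule used, 0 reversed, but a turned sign of a difference that was not called did not count as reversed. Many such signs did turn, as given below. The count of genes called in ERbetaKO against wild type was 0, but 1 (Igf2) with median scaling (-0.49, limma adjusted p of 0.0410, beside 14.3% of all genes called), without ERalphaKO male 3 and wild type male 3, and with the index of the other genes as a covariate (-0.45, 0.0221). In ERalphaKO against ERbetaKO it was 0, but 1 (Igf2) under the same settings (0.48, 0.0377 with median scaling, beside 18.6% of all genes, and 0.41, 0.0204 with the index), and 0 to 1 when 1 array was left out (Clic6 without ERalphaKO male 2, beside 9.05% of all genes). Leaving out ERalphaKO male 3 and wild type male 3 together and the index as a covariate were chosen after seeing the data. Without these 2 arrays 6.82% and 17.3% of all genes were called in the 2 comparisons. The share of all genes called with the index as a covariate is not given here. Otx2, in the fit over all probe sets, was called in ERalphaKO against ERbetaKO without ERalphaKO male 3 and wild type male 3 (1.02, 0.0218). The counts for ERalphaKO against wild type and for females against males were 0 throughout.

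The median correlation with Ttr, 0.437, was 0.391 to 0.520 with 1 array left out, 0.707 on deviations from group means, 0.0211 without the 2 arrays farthest from the median, 0.778 within ERalphaKO, 0.195 within ERbetaKO and 0.785 within wild type. With a replicate block it was 0.641. The replicate block changed no call of a choroid plexus gene. Whether equal replicate numbers mark a shared batch was not tested.

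Only 10 of 28 differences of the choroid plexus genes kept their sign in all settings, none of the other 18 being called in any. Of 48 calls of list genes, 23 held whichever array was left out, and 38 were lost with the Actb ratio as a covariate, 10 with median scaling, 9 without a filter, 9 without the 2 low arrays and 8 with the replicate block. With the Actb ratio the share of all genes called also fell, as given above, and the ratio went largely with genotype, so the 2 cannot be told apart. With no detection calls in the table, dim probe sets (Otx2, the second probe sets of Kl and Sostdc1) limit what can be shown.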
